A study of Caenorhabditis elegans with 2 samples.

Results

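The aminoacyl-tRNA synthetase genes of Caenorhabditis elegans were examined for regions of a chromatin immunoprecipitation followed by sequencing (ChIP-seq) experiment on the forkhead transcription factor FKH-10. Members were the protein-coding genes of the Ensembl WBcel235 annotation whose symbol joins a one-letter amino acid code to "ars" and a number, which gave 32 of 19973 genes on the nuclear chromosomes. Both libraries came from whole larvae of the fourth stage (L4), males and females pooled, of strain OP337. The strain carries the mutation unc119(ed3) and the integrated construct wgIs377, in which fkh-10 is joined to TY1, EGFP and FLAG tags beside a copy of unc119. All animals had this genotype, so the 2 biological replicates form 1 group, and no comparison between genotypes or treatments was possible.

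Synthetases join each amino acid to its own tRNA, using ATP, and so supply the ribosome with charged tRNAs. Animal cells need such enzymes in the cytosol and in mitochondria. For many amino acids a separate nuclear gene encodes the mitochondrial enzyme, which is imported after synthesis. For others a single gene serves, with several transcripts or with another route inside the organelle. When charging fails, uncharged tRNA activates the kinase GCN-2, which slows the start of translation.

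By function, 14 members encode cytosolic enzymes, 12 mitochondrial enzymes, and 6 are the single gene for their amino acid (cars-1, gars-1, hars-1, kars-1, qars-1 and tars-1). The number in a symbol is not a guide here, since aars-1 and vars-1 encode mitochondrial enzymes and aars-2 the cytosolic one. RefSeq product names give the compartment of 14 members, and none of them places a cytosolic gene in mitochondria or the reverse. The symbol rule does not take glp-4, the cytosolic valine enzyme, nor Y105E8A.20 (RefSeq symbol mars-2) nor prx-10, whose locus also carries the mitochondrial tryptophan enzyme. None of these 3 genes had a region in the strict list described next.

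Positions are on ce11, the sequence of WBcel235, and are counted from 1. The authors deposited 4 lists on this build. The strict list holds 2253 regions past an irreproducible discovery rate (IDR) threshold for the replicates together, here IDR regions. The relaxed lists, background included, hold 19381 regions (pooled), 30000 (replicate 1) and 28886 (replicate 2). A member had a region when the summit lay from 1000 bp upstream of a transcript start to the gene end. Each region carries the authors' signal, whose scale is not given in the sources used here, so signals were ranked within a list. Between lists, signals were set side by side only to describe the 2 replicates at the same sites. Depth in reads is unknown. The fkh-10 locus itself had 0 regions within 20 kb in each of the 4 lists, while unc-119 had 1 IDR and 12 pooled regions within 20 kb. The labelled target was therefore not checked by these lists, and the results are those of libraries labelled FKH-10.

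Sequence is shown for the IDR sites of kars-1, vars-1 and ears-2, which cover the single and mitochondrial genes. The cytosolic sites are not shown. Each is printed 5′ to 3′ on the strand of the gene, without annotated untranslated bases. Capitals mark the summit with the 10 bases on either side of it. The kars-1 stretch runs from 100 bases before to 100 bases after the summit (chrII:7072711-7072911, minus strand) and lies upstream of the gene. The vars-1 stretch ends at the base before the gene (chrV:8031279-8031410, plus strand). At ears-2 the summit lies 12 bp inside the gene, so only the 88 bases of the window between ears-2 and its divergent neighbour uncp-18 are given, with no capitals (chrIV:390469-390556, minus strand). vars-1 was added to the printed set after its values were seen.
kars-1: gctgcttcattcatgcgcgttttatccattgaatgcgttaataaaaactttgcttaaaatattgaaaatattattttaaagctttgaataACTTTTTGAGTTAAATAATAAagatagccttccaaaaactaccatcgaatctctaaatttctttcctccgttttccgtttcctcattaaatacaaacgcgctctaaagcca
vars-1: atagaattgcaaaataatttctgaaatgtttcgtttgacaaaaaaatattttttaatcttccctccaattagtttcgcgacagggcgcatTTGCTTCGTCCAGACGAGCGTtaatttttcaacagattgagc
ears-2: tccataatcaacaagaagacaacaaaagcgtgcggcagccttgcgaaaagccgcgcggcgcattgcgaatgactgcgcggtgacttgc

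A minority of the synthetase genes, as of all genes, had an IDR region, and those of the members were weak for their list. Of the 32 members 5 had one (15.6%, 95% Wilson interval 6.86 to 31.8), namely nars-1, fars-1, kars-1, ears-2 and vars-1, with 1 region each. Among all protein-coding genes the share was 8.56%, and among the 10786 genes whose windows were as long as those of the members, from 2764 to 13395 bp, it was 9.72%. The interval of the members' share includes both background values. All 5 summits lay in the promoter window, from 1000 bp upstream to 200 bp downstream of a start, where 6.98% of all genes had one. By the nearest start alone 4 members kept a region, against 6.58% of all genes. None of the 5 was among the strongest 1126 of the 2253 IDR regions, and their ranks ran from 1291 to 2109. Their median signal was 46.3, against 59.2 over all IDR regions. Without replicate 2, among the 2253 strongest regions of replicate 1, 3 members had a region (ears-2, fars-1 and nars-1), beside 8.12% of all genes. Without replicate 1, among the 2253 strongest of replicate 2, 3 had one (ears-2, kars-1 and nars-1), beside 8.47% of all genes.

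The cytosolic and mitochondrial enzymes had nearly equal shares of genes with an IDR region. Of the 14 cytosolic genes 2 had one (14.3%, interval 4.01 to 39.9), nars-1 and fars-1. Of the 12 mitochondrial genes 2 had one (16.7%, interval 4.70 to 44.8), ears-2 and vars-1. Of the 6 single genes it was kars-1 alone. No test was made between these classes, whose members are genes and not replicates. The wide intervals leave large differences in either direction undetectable with so few genes.

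**Figure D1:**
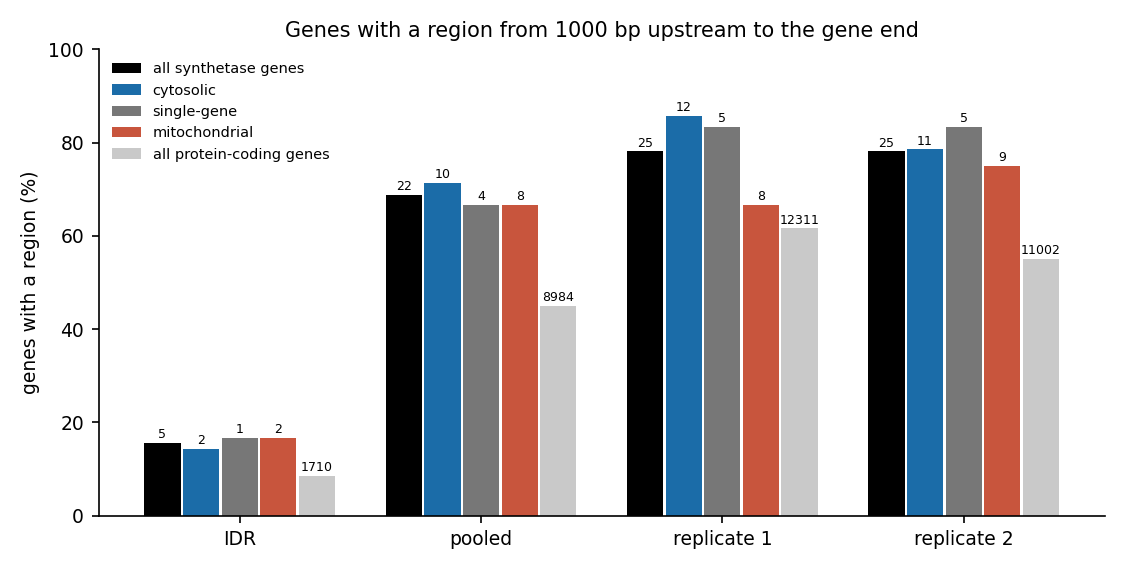
Bars give the percentage of genes with a region summit from 1000 bp upstream of a start to the gene end, in each of the 4 lists, for all synthetase genes, the 3 classes and all protein-coding genes; the number of genes stands above each bar. The 3 classes lie close together in the IDR list, at 2 of 14, 1 of 6 and 2 of 12 genes.

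Among the cytosolic enzymes, nars-1 (WBGene00003815, chromosome I, 7088030 to 7090062, minus strand), the asparagine enzyme, had the strongest region. Its IDR signal was 55.2, rank 1350, with the summit at 7090338, 276 bp upstream of the start. The same site had a signal of 22.9 in replicate 1 (rank 1548 of 30000) and of 33.5 in replicate 2 (rank 1206 of 28886). It was thus among the 2253 strongest regions of either replicate. The promoter is shared: the summit also lay 402 bp upstream of nduf-6, which runs the other way and encodes a protein of respiratory complex I. Which of the pair the region belongs to is not assigned.

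The phenylalanine enzyme of the cytosol is built from an alpha subunit, encoded by fars-1, and a beta subunit, encoded by fars-3. The IDR region of fars-1 (WBGene00001497, chromosome I, 6211981 to 6214685, minus strand) had a signal of 46.3 and rank 1843, with the summit at 6215621. That is 936 bp upstream of fars-1, inside the gene T08B2.15, and only 106 bp upstream of rbm-5, which encodes an RNA-binding protein. Replicate 1 had a signal of 21.7 there (rank 1719) and replicate 2 one of 17.5 (rank 3615). Assigned to the nearest start, this region would belong to rbm-5 and not to fars-1. fars-3 had no IDR region, but its pooled region at 155 bp upstream, with a signal of 34.5 and rank 2844 of 19381, was the strongest of any member without an IDR region. It had a signal of 14.1 in replicate 1 and 18.4 in replicate 2.

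kars-1 (WBGene00002238, chromosome II, 7070183 to 7072415, minus strand), the lysine enzyme, had an IDR signal of 45.4, rank 1916, with the summit at 7072811, 396 bp upstream. The replicate 1 signal there was 18.1 (rank 2455) and the replicate 2 signal 28.2 (rank 1707). No other protein-coding promoter window held this IDR summit. The pooled summit lay 444 bp upstream of kars-1 and fell just within 1000 bp of kat-1, a thiolase gene on the other strand.

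Among the mitochondrial enzymes, ears-2 (WBGene00001338, chromosome IV, 388686 to 390468, minus strand) had the strongest IDR region of any member. RefSeq names its product a nondiscriminating glutamyl-tRNA synthetase, a type that charges the tRNAs of both glutamate and glutamine. The signal was 56.2, rank 1291, with the summit at 390456, 12 bp inside the gene and in its first exon. Replicate 1 had 24.5 (rank 1343) and replicate 2 had 38.9 (rank 847). The divergent gene uncp-18 starts 104 bp from the same summit. This site, with that of nars-1, ranked highest of the member sites in both replicates.

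vars-1 (WBGene00006935, chromosome V, 8031411 to 8035025, plus strand), the mitochondrial valine enzyme, had the weakest of the 5 regions. Its IDR signal was 43.1, rank 2109, with the summit at 8031379, 32 bp upstream of the start. The site had a signal of 15.6 in replicate 1 (rank 3431) and of 21.2 in replicate 2 (rank 2708), outside the 2253 strongest of either. The gene oma-2, on the same strand, ends 197 bp before vars-1. Both mitochondrial sites thus lay within 50 bp of the member's start, against 3 sites at 276 to 936 bp for the cytosolic and single genes. Over all 1099 IDR regions in promoter windows, 11.6% lay within 50 bp of a start and the median distance was 218 bp. That background was measured otherwise, to the nearest start of any gene whose promoter window held the summit. By that measure the fars-1 site lay 106 bp from a start, that of rbm-5. With 5 sites these distances are a description only.

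**Figure D2:**
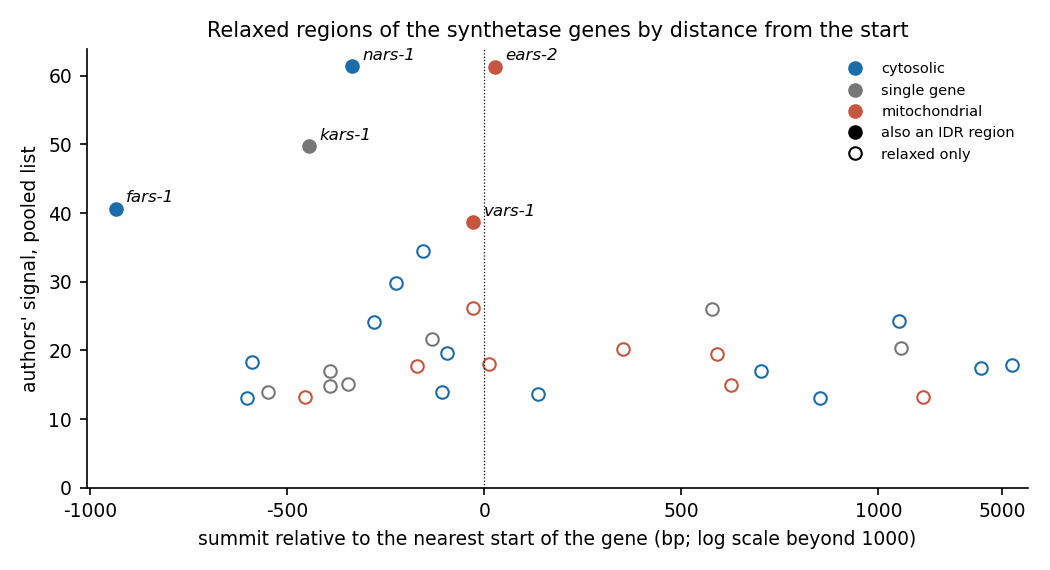
Each point is 1 of the 33 pooled relaxed regions of the synthetase genes, placed by the distance of its summit from the nearest start of the gene in bp (negative is upstream, with a log scale beyond 1000 bp) and by the authors' signal in the pooled list. Filled points are also IDR regions: those of ears-2 and vars-1 sit at the start, those of nars-1, kars-1 and fars-1 upstream of it.

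The 2 replicates both held all 5 sites, and replicate 2 had the higher signal at 4 of them. The exception was fars-1. Replicate 2 was also the higher at 74.4% of all IDR regions matched in both replicates (1498 of 2013). The scale of the signal is unknown, so these values describe the lists only. The log2 ratio of the replicate 2 over the replicate 1 signal averaged 0.40 ± 0.41 (SD, 5 sites), and over the 2013 IDR regions matched in both replicates it averaged 0.42 ± 0.72 (SD). Of all IDR regions, 89.3% had a summit within 100 bp in both replicate lists. The member sites had a median of 21.7 in replicate 1 and 28.2 in replicate 2, below the medians of 25.9 and 34.2 over the matched IDR regions.

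**Figure D3:**
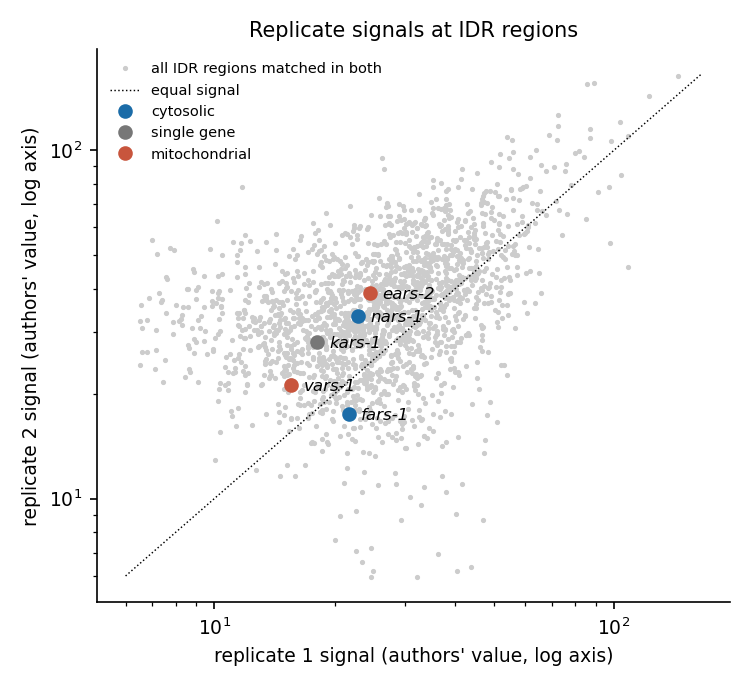
Each grey point is 1 of the 2013 IDR regions with a summit within 100 bp in both replicate lists, by the authors' signal in replicate 1 and in replicate 2 (both axes log), with a dotted line at equal signal. The 5 named synthetase sites, coloured by class, lie in the middle to lower part of the cloud, and fars-1 alone among them lies below the line.

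In the relaxed pooled list, 22 of the 32 members had a region (68.8%, interval 51.4 to 82.0), against 45.0% of all protein-coding genes and 54.0% of genes with windows of the same range of length. Of these 22, 5 also had an IDR region, against 19.0% of all genes with a pooled region, and 17 had none. The strongest pooled signal of a member ranged from 13.1 at iars-1 to 61.4 at nars-1, with a median of 21.0, against a median of 19.1 over all genes with a pooled region. Per 10 kb of window the members had 2.03 pooled regions and all protein-coding genes 1.93. The median window was 4576 bp for the members and 3027 bp for all protein-coding genes. The part of window length in the difference was not tested. In the promoter window alone, without the rest of the gene, 20 of the 32 members had a pooled region (62.5%), against 31.3% of all protein-coding genes.

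Relaxed regions of several cytosolic members lay close upstream of the start. After fars-3 came mars-1, the methionine enzyme, with a pooled signal of 29.8 at 225 bp upstream, and aars-2, the alanine enzyme, with 24.2 at 280 bp upstream. Each replicate list held the aars-2 site, at 12.8 in replicate 1 and 11.8 in replicate 2. sars-1, the serine enzyme, had 19.6 at 94 bp upstream, with no summit within 100 bp in replicate 1. The leading sites of dars-1, iars-1 and yars-1 below likewise had none there. At mars-1 none lay within 100 bp in replicate 2. dars-1, the aspartate enzyme, had 17.1 inside an exon and 13.9 at 107 bp upstream, the second nearer to ctr-9. That second site had no summit within 100 bp in either replicate. iars-1, the isoleucine enzyme, had 13.1 at 603 bp upstream, nearer to pges-2. At wars-1, the tryptophan enzyme, the stronger region, with 17.9, lay 5664 bp inside the gene. yars-1, the tyrosine enzyme, one of the longest members, had 3 pooled regions, led by 18.3 at 589 bp upstream. A second relaxed region of fars-1, with 24.3, lay in an intron within 200 bp of the snoRNA gene T08B2.13. This region had no summit within 100 bp in replicate 2.

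Among the single genes without an IDR region, gars-1, hars-1 and tars-1 had pooled regions. gars-1, the glycine enzyme, had a pooled signal of 26.0 at 578 bp downstream of the nearest start, and hars-1, the histidine enzyme, one of 21.6 at 133 bp upstream. The gars-1 site had no match in replicate 1 and 17.4 in replicate 2. The hars-1 site had 13.3 in replicate 1 and 6.65 in replicate 2. tars-1, the threonine enzyme, had 4 pooled regions, the largest number among the members, with signals from 13.9 to 20.3. Of these, 3 had their nearest start at kel-1 or xpf-1 and not at tars-1. Only the strongest of the 4 had a summit within 100 bp in both replicates.

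Mitochondrial members without an IDR region had relaxed sites near the start or inside the gene. yars-2 had 26.1 at 28 bp upstream, sars-2 20.3 at 353 bp downstream and 17.8 at 170 bp upstream, and fars-2 19.5 in an intron. pars-2 had 18.1 at 12 bp downstream of its start, with no summit within 100 bp in either replicate but an overlapping region in replicate 2, and 14.9 further in. nars-2 had 13.2 in an intron, 455 bp upstream of its nearest start and so in a promoter window. aars-1 had 13.2 at 1776 bp downstream. The sites of yars-2, fars-2 and aars-1, and both of sars-2, had a summit within 100 bp in replicate 2 alone. Of the 15 pooled regions of cytosolic genes 10 were in a promoter window, of the 8 of single genes 7, and of the 10 of mitochondrial genes 6. Counted as genes, 10 of 14 cytosolic, 4 of 6 single and 6 of 12 mitochondrial genes had such a region, beside 31.3% of all protein-coding genes. In the list of replicate 1 these counts were 7, 5 and 4, beside 40.5% of all genes. In that of replicate 2 they were 11, 5 and 9, beside 39.5%.

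Of the 33 pooled member regions, 12 had a summit within 100 bp in both replicate lists (36.4%), 13 only in replicate 2, 6 only in replicate 1, and 2 in neither. Over all pooled regions 34.5% were found in both. Counting any overlap of at least 1 bp instead, a choice made after the data were seen, 20 of the 33 had a region in both replicates (60.6%), and 54.8% of all pooled regions did. The kars-1 site is one that differs between these counts, since its pooled summit had a summit within 100 bp in replicate 1 alone, while its IDR summit had one in both.

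Between cytosolic and mitochondrial genes, the density of relaxed regions differed in opposite directions in the 2 replicates. The share of genes marked was 85.7% for cytosolic and 66.7% for mitochondrial genes in replicate 1 (intervals 60.1 to 96.0 and 39.1 to 86.2). In replicate 2 these shares were nearly equal, at 78.6% and 75.0% (intervals 52.4 to 92.4 and 46.8 to 91.1). In replicate 1, 25 of 32 members had a relaxed region, among them 12 of 14 cytosolic, 5 of 6 single and 8 of 12 mitochondrial genes, beside 61.6% of all genes and 72.3% of those of like window length. In replicate 2 it was again 25 of 32, with 11 of 14 cytosolic, 5 of 6 single and 9 of 12 mitochondrial genes, beside 55.1% of all genes and 65.7% of those of like window length. Counted as regions per 10 kb of window, cytosolic genes had 4.40 and mitochondrial genes 1.84 in replicate 1, but cytosolic genes had 3.08 and mitochondrial genes 3.98 in replicate 2. fars-2, for example, had 1 region in replicate 1 and 7 in replicate 2, and nars-2 had 2 and 5.

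**Figure D4:**
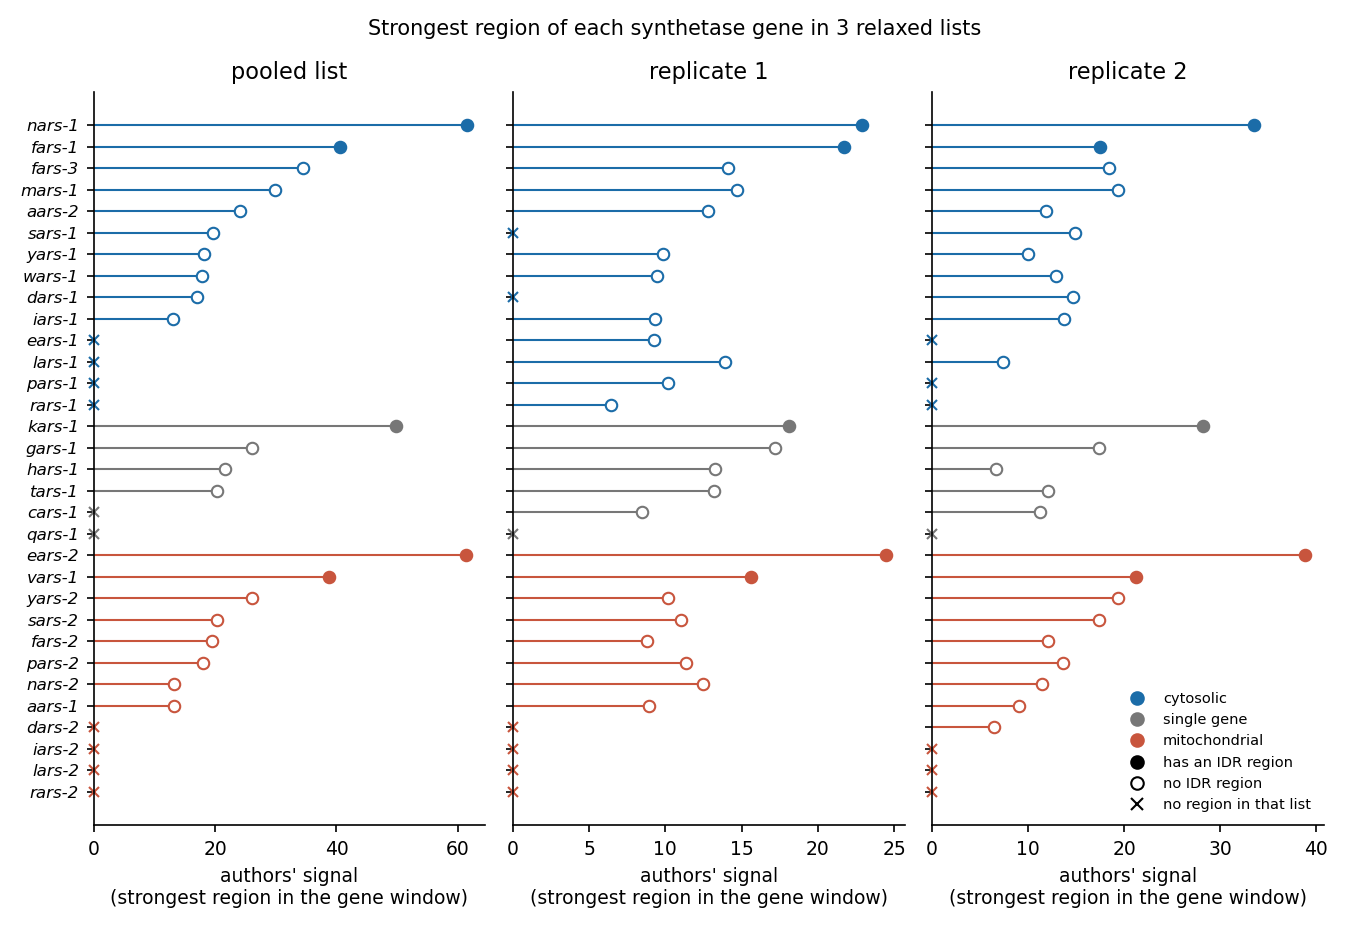
Rows are the 32 synthetase genes by class (cytosolic, single gene, mitochondrial) and points give the authors' signal of the strongest region in the gene window, in the pooled list, replicate 1 and replicate 2, each on its own axis. Filled points are the 5 genes with an IDR region and crosses mark genes with no region in that list; nars-1 and ears-2 lead in all 3 lists.

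At 4 members no list held a region: the mitochondrial enzymes iars-2, lars-2 and rars-2, and qars-1, the glutamine enzyme. A further 6, ears-1, lars-1, pars-1, rars-1, cars-1 and dars-2, had regions only in a replicate list. Of these, lars-1 and cars-1 had one in both replicates, with strongest signals of 13.9 in replicate 1 and 7.38 in replicate 2 at lars-1. At cars-1 they were 8.48 and 11.3. ears-1, pars-1 and rars-1 had regions in replicate 1 alone and dars-2 in replicate 2 alone. The 10 members named here had no pooled region, and neither did 10989 of the 19973 protein-coding genes. The share of all genes without a region in any list was not counted. Absence from a list means only that the list held no region with its summit in the gene window.

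The position of a gene behind a same-strand neighbour differed between the classes. In C. elegans such genes are often transcribed from a shared upstream promoter, as operons, which the annotation used here does not list. With a gap of at most 250 bp to the upstream neighbour, a limit chosen after the gaps were seen, 2 of 14 cytosolic genes (rars-1 and yars-1) had one, against 6 of 12 mitochondrial genes (dars-2, lars-2, nars-2, rars-2, vars-1 and yars-2). gars-1 was the only single gene. Such genes made up 28.1% of the members and 11.1% of all protein-coding genes. Of these 9 members 1 had an IDR region (vars-1), and of the other 23 members 4 had one. Over all protein-coding genes the IDR share was 3.97% with such a neighbour and 9.13% without. A pooled region was found at 5 of the 9 and 17 of the other 23 members, beside 41.9% and 45.4% of all genes. A region at the head of a cluster lies outside the windows used here when the upstream gene is longer than the window, so it was not counted for the synthetase.

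The 5 member sites had, on average, fewer G and C bases than IDR regions in general. Within 100 bases of the summit the GC content was 35.8% ± 5.28 (SD, 5 sites), against 42.8% ± 7.08 (SD) over all IDR regions. The range was 30.8% at kars-1 to 44.3% at ears-2. The GAGA repeat GAGAGAG, sought on either strand, was in 0 of the 5 windows, against 20.1% of all IDR windows, 7.30% of pooled windows and 5.15% of windows of that length ending at a protein-coding start. The forkhead letters GTAAACA were also in 0 of 5, against 3.60%, 2.80% and 3.48% of those sets. A wider forkhead set, in which GTAAACA itself counts and so do ATAAACA or else GTAAATA or also ATAAATA, was in 1 window, that of nars-1, and in 14.0%, 18.4% and 26.6% of the sets. With 5 windows, no share can be told from these.

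Other genes of tRNA handling were counted by the same rule. Of 46 symbols listed, 41 were found in the annotation, and 8 of these had an IDR region, beside 8.56% of all genes. Cytosolic elongation factors had 5 of 6, with a median strongest signal of 122, above every synthetase. They were eef-1A.2 (signal 149.9), eef-2 (131), eef-1A.1 (122), eef-1G (91.3) and eef-1B.1 (60.9). All but eef-1A.2 shared the site with the promoter window of another gene. Their mitochondrial counterparts had 1 of 4, gfm-1, with a signal of 42.0, which was 7.36 in replicate 1 and 36.7 in replicate 2. The gfm-1 site also lay in the promoter window of rict-1. Factors that process, modify or export tRNA had 0 of 17, and RNA polymerase III factors, which include the shared factor tbp-1, 0 of 6. Of 8 genes in the response to uncharged tRNA 2 had a region. These were gcn-1, the activator of GCN-2 (56.7), and eif-2Bbeta, a subunit of the guanine exchange factor eIF2B (54.9), whose site had no match in replicate 1. The eif-2Bbeta site also lay in the promoter window of Y47H9C.8. gcn-2, atf-4, the transcription factor of this response, and eif-2alpha had no IDR region.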

How the data were processed

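The authors deposited region lists in narrowPeak order. Per the labels and file names, the IDR list combines both replicates, and the relaxed lists were made per replicate and pooled. Each region has a deposited signal value and a summit offset. No aligner, peak caller, control scaling or threshold is given in the sources used here. The same lists on ce10 were not used, and no positions were converted. Gene positions came from Ensembl release 115 and sequence and product names from the RefSeq copy of WBcel235.

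Regions in separate lists were matched at summits within 100 bp. The replicates shared 0 regions with the same position and signal. Shares carry 95% Wilson intervals (SciPy 1.17.1, Python 3.11.15), which cover counting error only. No significance test was made, since there is 1 group and the members are a gene list. The members, classes and lists were chosen with earlier results of these data known. Of the 32 members, those with an IDR or pooled region are named with values, and neighbours whose promoter window holds the summit are named beside them. Compartments were assigned from general knowledge of the enzymes and set beside RefSeq product names. The counting was tested on simulated data.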

Additional observations from a re-analysis of the deposited data

How the results depend on the processing

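The 5 members with an IDR region were counted again under other settings, and within a factor of 1.5 the count held with the promoter window alone (5 members, 6.98% of all genes), with 500 bp upstream (4 members, 7.34% of all genes), with the nearest start only (4, 6.58%) and with the strongest pooled regions (4, 8.44%). With the strongest 1126 IDR regions 0 members were left, in each class (0 cytosolic, 0 single, 0 mitochondrial), against 4.53% of all genes. Leaving out a replicate gave 3 members either way, beside 8.47% of all genes without replicate 1 and 8.12% without replicate 2, with 1 to 2 cytosolic, 1 mitochondrial and 0 to 1 single. Cytosolic genes fell to 1 with 500 bp upstream and to 1 with the nearest start only, since fars-1 was lost, and mitochondrial genes to 1 with the strongest pooled regions, since vars-1 was lost. Sites found in both replicates fell to 3 of 5 with summits within 50 bp and stayed at 5 with 200 bp or an overlap of 1 bp. Pooled member sites found in both replicates went up to 20 of 33 when any overlap counted, against 12 by summits within 100 bp. No paired analysis was possible because the samples form 1 group. The unknown read depth limits what absence from a list can show.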
